A study of Mus musculus with 55 samples.

Results

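The SLC25 genes encode the carriers of the mitochondrial inner membrane and a few relatives in other membranes. The genes described here are those whose probe sets carry a single symbol of the form Slc25a followed by a number, without Slc25a20, which is counted below among other transport genes. Each gene is read by 1 probe set, the one with the highest mean over the 55 arrays. This gave 43 of 18193 genes in all. Of these, 28 exceeded 20 on the linear signal scale in at least 3 arrays and were tested, among 8237 such genes in all, and 15 are marked as dim.

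Transcript levels were measured in whole hearts of 55 male Sv129 mice, 1 Affymetrix mouse array per heart. Wild-type mice (WT, 25 arrays) were 129S1/SvImJ, and mice without the nuclear receptor PPARα (PPARα-/-, KO, 30 arrays) were 129S4/SvJae, so genotype and substrain cannot be told apart. All mice had a run-in diet of modified AIN76A with olive oil in place of corn oil, were fasted for 4 h, received 1 gavage of 400 µL and were killed 6 h later. The control gavage was carboxymethyl cellulose (0.5%) per the treatment protocol, while the treatment label says none was given. Wy14643, a synthetic agonist of PPARα, was given at 10 mg/mL in the same vehicle. The oils were synthetic triglycerides of oleic acid (triolein, 18 carbons and 1 double bond per chain), linoleic acid (trilinolein, 18 and 2), linolenic acid (trilinolenin, 18 and 3) and docosahexaenoic acid (tridocosahexaenoin, 22 and 6). The oils were given without the cellulose vehicle, as far as the protocol says. WT groups had 3 arrays after control, 4 after triolein, 5 after trilinolein, 4 after trilinolenin, 5 after tridocosahexaenoin and 4 after Wy14643, and every KO group had 5. Age is labelled both as 9 to 12 weeks and as 2 to 6 months, the same in both genotypes.

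Carriers of this family move metabolites, nucleotides, cofactors and ions across the inner mitochondrial membrane, which is otherwise closed to them. Most share a fold of repeated pairs of membrane helices, are made in the cytosol and are inserted by a dedicated import route. In heart muscle the adenine nucleotide and phosphate carriers supply ATP synthase, the aspartate-glutamate and oxoglutarate-malate carriers move reducing equivalents as the malate-aspartate shuttle, and other members bring in coenzyme A, NAD, iron or glutathione. PPARα is a receptor for fatty acids that acts on many genes of fat oxidation.

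Values are deposited log2 signals, so a difference of 1 is a doubling. Differences are given ± SE from a limma model of all 12 groups, and a gene is called at an adjusted p under 0.05 over all 8237 tested genes. Array medians lay between 2.55 and 2.61, and the number of arrays limits the precision. The 3 probe sets of Ppara differed by -0.73, -1.29 and -0.71 between KO and WT control hearts, and the sources used here do not say whether they lie in the deleted part. The labelled tissue was checked on markers. All 7 ventricular markers were bright, and their summed linear signal ran from 107949 to 110819 in WT controls and from 108394 to 114826 in KO controls. Adipocyte markers (4 measured) and liver markers (3 measured) were all dim. In whole tissue, fewer cells of a type and less RNA per cell cannot be told apart.

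Promoter sequences of 4 members are shown because the results below turn on these genes: Slc25a22 and Slc25a42 had the largest genotype differences, Slc25a34 rose after trilinolenin, and Slc25a13 fell after triolein and tridocosahexaenoin in WT hearts. The sequences are from RefSeq on GRCm38.p6, all on the minus strand, 300 bases that span the gene's start. Slc25a22 lies at chr7:141437825-141438124 (1 of its 3 listed starts), Slc25a42 at chr8:70212232-70212531, Slc25a34 at chr4:141623785-141624084 and Slc25a13 at chr6:6217124-6217423. Capitals mark matches on either strand to GGGCGG (SP1 box), CCAAT (NF-Y box), AGGTCA (nuclear receptor half-site) and CACGTG (E-box).
Slc25a22: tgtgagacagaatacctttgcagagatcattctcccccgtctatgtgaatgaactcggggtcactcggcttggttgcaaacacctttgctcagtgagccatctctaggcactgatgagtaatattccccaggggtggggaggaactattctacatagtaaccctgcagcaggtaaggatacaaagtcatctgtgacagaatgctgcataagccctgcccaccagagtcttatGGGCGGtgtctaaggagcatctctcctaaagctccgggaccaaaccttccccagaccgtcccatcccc
Slc25a42: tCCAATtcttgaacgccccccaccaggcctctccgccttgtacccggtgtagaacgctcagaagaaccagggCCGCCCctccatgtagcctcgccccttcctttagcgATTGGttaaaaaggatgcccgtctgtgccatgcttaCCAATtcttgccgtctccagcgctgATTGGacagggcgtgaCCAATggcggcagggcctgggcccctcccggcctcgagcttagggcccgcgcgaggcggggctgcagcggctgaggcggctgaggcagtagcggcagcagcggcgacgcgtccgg
Slc25a34: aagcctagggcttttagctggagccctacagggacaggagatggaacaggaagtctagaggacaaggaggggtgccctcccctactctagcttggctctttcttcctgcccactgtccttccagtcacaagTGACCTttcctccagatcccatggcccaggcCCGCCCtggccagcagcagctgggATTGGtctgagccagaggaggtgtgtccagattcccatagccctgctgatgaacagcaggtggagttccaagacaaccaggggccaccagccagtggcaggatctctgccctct
Slc25a13: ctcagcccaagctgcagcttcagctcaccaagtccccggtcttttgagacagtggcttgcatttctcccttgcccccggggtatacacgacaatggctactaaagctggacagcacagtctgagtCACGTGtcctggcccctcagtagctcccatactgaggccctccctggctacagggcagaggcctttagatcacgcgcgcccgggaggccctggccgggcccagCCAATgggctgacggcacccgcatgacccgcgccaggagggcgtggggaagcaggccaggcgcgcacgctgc

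RefSeq promoters were matched for 33 of the 43 members, giving 42 promoters among 32851 in all. Slc25a42 holds CCAAT at 5 places, with first bases at -249, -142, -106, -81 and -65 from the start, and GGGCGG at 1. Slc25a34 holds the half-site AGGTCA, on the minus strand of the printed run. That half-site lies in 4 member promoters (9.52%; Slc25a34, Slc25a39, Slc25a45 and Slc25a47) and in 16.3% of all promoters. Its direct repeat, AGGTCA then any base (N) then AGGTCA, was matched in 0 member promoters and in 0.0396% of all. The share with GGGCGG was 85.7% of member promoters and 35.7% of all, with CCAAT 50% and 37.4%, and with CACGTG 19% and 7.15%. Shorter letters lie inside longer ones, since AGGTCA is part of the full repeat. Members' promoters had a median GC content of 59.8%, against 52.7% for all promoters. A match is a description of the letters only.

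The 15 dim members were Slc25a1, Slc25a2, Slc25a10, Slc25a14, Slc25a18, Slc25a25, Slc25a31, Slc25a32, Slc25a35, Slc25a41, Slc25a45, Slc25a47, Slc25a48, Slc25a53 and Slc25a54. They include the citrate carrier Slc25a1, the dicarboxylate carrier Slc25a10 and Slc25a31, the adenine nucleotide carrier of germ cells. None exceeded 20 in any of the 55 arrays, and the highest single value was 4.07 on the log2 scale, for Slc25a10, beside the brightness minimum of 4.32. Nearest above that minimum were the tested Slc25a27, which exceeded 20 in 34 arrays, Slc25a38 in 40 and Slc25a17 in 48. By role, 5 of 8 adenine nucleotide and phosphate carriers were tested, as were 7 of 8 carriers of coenzymes, vitamins and other nucleotides, 1 of 3 carboxylate carriers and 7 of 9 amino acid carriers. All 4 iron and glutathione carriers were tested, with 2 of 3 uncoupling protein relatives and 2 of 8 carriers of other or unsettled cargo.

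Between genotypes, the carrier family did not move as a block, but single members differed strongly. With the control gavage, 1 of 28 members was called (3.57%), beside 3.62% of all tested genes, and the median difference was 0.03 (0.01 over all genes). That member was Slc25a22, the mitochondrial glutamate carrier. Averaged over the 6 gavages, 15 of 28 members were called (53.6%), beside 39% of all tested genes. Of these, 8 were higher in KO hearts, beside 22.8% of all genes, and 7 were lower, beside 16.1%. The median over the members was again near 0, at 0.01, with 0.02 over all genes.

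**Figure D1:**
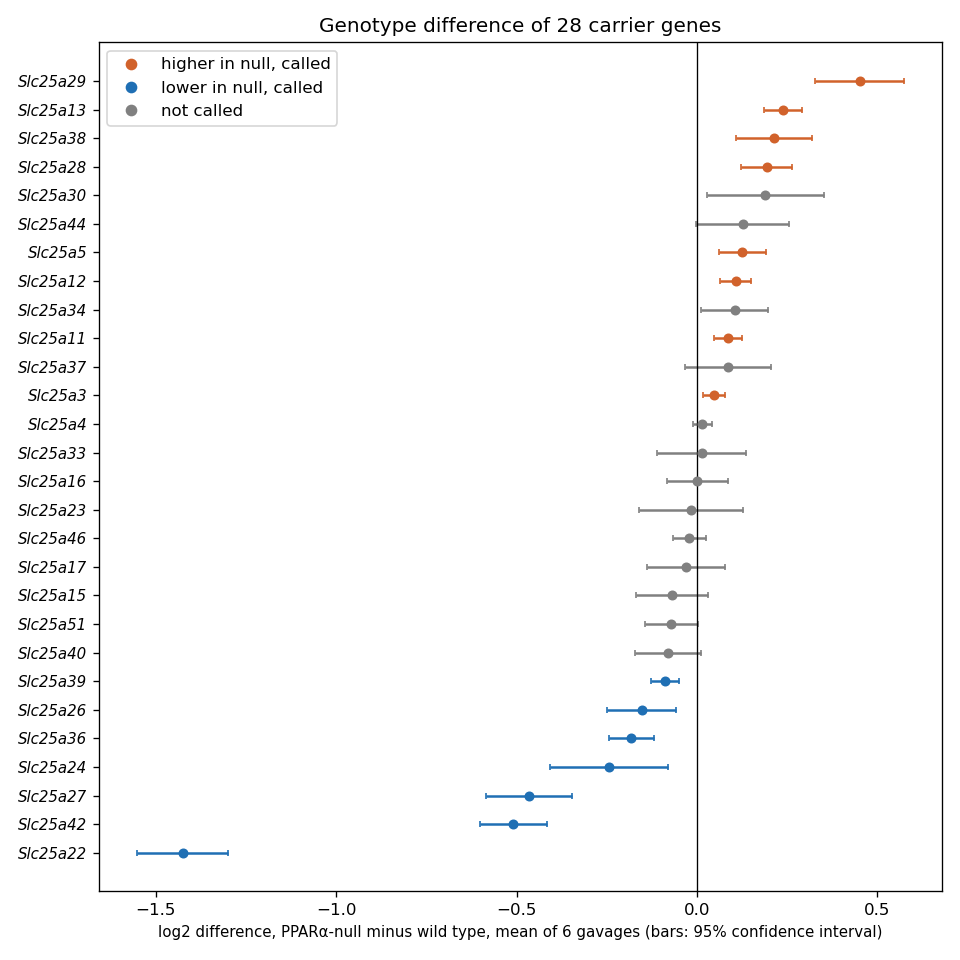
Log2 difference between PPARα-null and wild-type hearts averaged over 6 gavages (x axis, bars are 95% confidence intervals) for each of the 28 tested carrier genes (y axis), coloured by call. Slc25a22 lies at -1.43, apart from the other members, which span -0.51 to 0.45.

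Slc25a22 brings glutamate into the matrix together with a proton. Its signal was 6.81, 6.36 and 6.32 in the WT control hearts and 5.11, 5.34, 5.39, 5.09 and 5.47 in the KO control hearts. Over all gavages it ran from 6.19 to 7.26 (median 6.65) in WT arrays and from 4.69 to 5.75 (median 5.16) in KO arrays. Every one of the 30 KO arrays thus lay below every one of the 25 WT arrays. The difference was -1.22 ± 0.17 with the control gavage (limma adjusted p = 5.38e-07) and -1.43 ± 0.06 averaged over gavages (95% interval -1.55 to -1.30, adjusted p = 1.39e-24). KO hearts held 0.372 times the WT signal by the averaged value. By gavage it was -1.49 ± 0.15 after triolein, -1.53 ± 0.14 after trilinolein, -1.48 ± 0.15 after trilinolenin, -1.11 ± 0.14 after tridocosahexaenoin and -1.73 ± 0.15 after Wy14643. Slc25a18, the other glutamate carrier, was dim in every array. Slc25a22 has 1 probe set on the array, so no second probe set could be compared.

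Slc25a42 exchanges coenzyme A for adenine nucleotides across the inner membrane. With the control gavage the genotypes overlapped, at 7.93, 8.24 and 7.77 in WT hearts and 7.94, 8.04, 8.11, 7.93 and 7.72 in KO hearts. After triolein the WT values were 8.42, 8.52, 8.35 and 8.42 and the KO values 7.78, 7.94, 7.65, 7.59 and 7.88. After Wy14643 they were 8.75, 8.48, 8.40 and 8.46 in WT and 7.72, 7.85, 7.65, 7.86 and 7.80 in KO hearts. The genotypes did not overlap after either of these gavages. The genotype difference was -0.03 ± 0.12 after control, -0.66 ± 0.11 after triolein, -0.59 ± 0.11 after trilinolein, -0.77 ± 0.11 after trilinolenin, -0.26 ± 0.11 after tridocosahexaenoin and -0.75 ± 0.11 after Wy14643. Averaged over gavages Slc25a42 was lower in KO hearts (-0.51 ± 0.05, adjusted p = 7.2e-13), or 0.703 times the WT signal, although the control hearts alone gave -0.03 (95% interval -0.28 to 0.22).

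**Figure D2:**
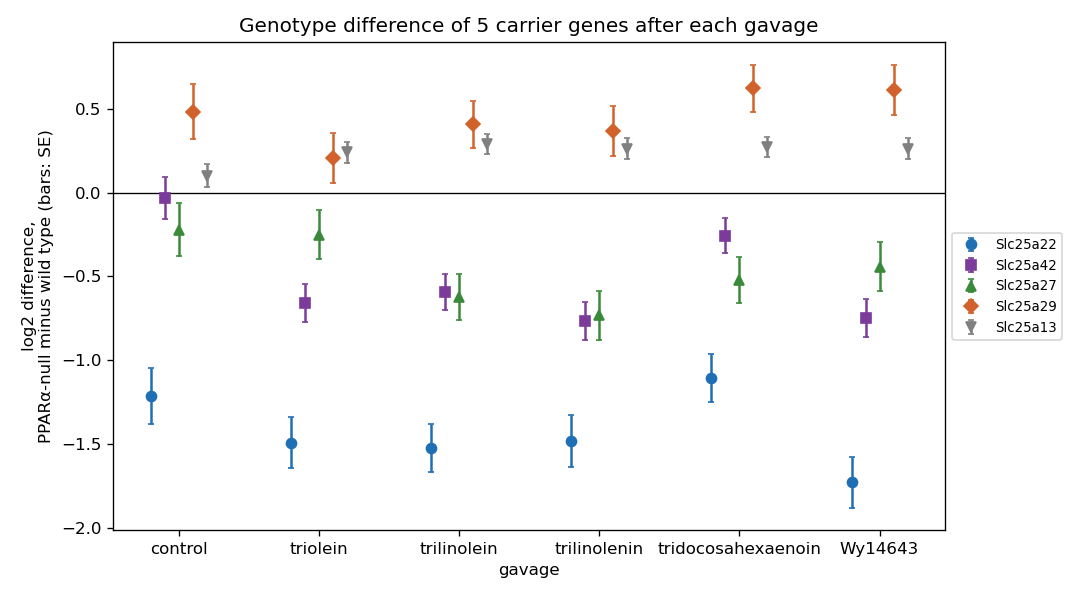
Log2 difference between PPARα-null and wild-type hearts (y axis, bars are SE from the model) after each gavage (x axis) for 5 carrier genes. Slc25a22 is below -1.1 after every gavage, while Slc25a42 is at -0.03 after control and between -0.77 and -0.26 after the other gavages.

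The remaining members called lower in KO hearts on the average over gavages came from several roles. Slc25a27, an uncoupling protein relative also called UCP4, was lower, at -0.46 ± 0.06. Its WT arrays ran from 4.04 to 5.39 and its KO arrays from 3.47 to 4.59, and 6 KO arrays lay below all WT arrays. Since several of its group means are near or under the brightness minimum of 4.32, its sizes are not exact. Slc25a24, a calcium-regulated ATP-magnesium and phosphate carrier, differed by -0.24 ± 0.08 and had the widest spread of all tested members (residual SD 0.31). Slc25a36, a carrier of pyrimidine nucleotides, differed by -0.18 ± 0.03, and its other bright probe sets gave -0.18 and -0.17. Slc25a26, the S-adenosylmethionine carrier, differed by -0.15 ± 0.05 and its second bright probe set by -0.17. Slc25a39, a glutathione carrier, differed by -0.09 ± 0.02, and its relative Slc25a40 by -0.08 ± 0.05 without a call.

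Of 7 tested amino acid carriers, 4 were higher in KO hearts, beside 22.8% of all genes, 1 was lower (Slc25a22) and 2 were not called. Slc25a29, a carrier of basic amino acids, was higher by 0.45 ± 0.06, with WT arrays from 4.25 to 5.28 and KO arrays from 4.60 to 5.93. Its overlap was wide, since 9 of 30 KO arrays lay above every WT array, and its 4 dim probe sets gave 0.21 to 0.32. Slc25a13 (citrin) and Slc25a12 (aralar), the aspartate-glutamate carriers of the malate-aspartate shuttle, were higher by 0.24 ± 0.03 and 0.11 ± 0.02, the latter without a call when the mean of all probe sets was used (Slc25a12 0.0149, adjusted p = 0.698). Slc25a38, the glycine carrier needed for heme synthesis, was higher by 0.21 ± 0.05. The branched-chain amino acid carrier Slc25a44 gave 0.13 ± 0.06 and the ornithine carrier Slc25a15 gave -0.07 ± 0.05, both without a call.

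Slc25a28 (mitoferrin 2), an iron carrier, was higher in KO hearts by 0.19 ± 0.04, while the related Slc25a37 (mitoferrin 1) gave 0.09 ± 0.06 without a call. The oxoglutarate-malate carrier Slc25a11, the third carrier of the malate-aspartate shuttle, was higher by 0.09 ± 0.02. Members with an averaged interval on both sides of 0 included Slc25a16 (0.00, -0.08 to 0.09), the peroxisomal cofactor carrier Slc25a17 (-0.03, -0.14 to 0.08) and Slc25a46, an outer-membrane relative (-0.02, -0.07 to 0.03). Slc25a30, an uncoupling protein relative, gave 0.19 ± 0.08 (adjusted p = 0.056), and its second bright probe set gave 0.02. Slc25a51 was not called in the reported model, but was called lower with the mean of all its probe sets (-0.12, limma adjusted p = 0.000962).

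Genotype differences of the carriers that serve ATP synthesis were small. Slc25a4 (ANT1), the heart adenine nucleotide carrier, read 14.29, 14.30 and 14.29 in WT controls and 14.27, 14.30, 14.27, 14.31 and 14.34 in KO controls. Its residual SD of 0.03 was the smallest among tested members, and its averaged genotype difference was 0.02 ± 0.01 without a call. Its signal is close to 14.87, the highest value of any probe set in these arrays. With the mean of all its probe sets, Slc25a4 was called higher in KO hearts (0.0524, limma adjusted p = 0.0182). Slc25a5 (ANT2) read 11.24, 11.18 and 11.37 in WT controls and 11.23, 11.31, 11.39, 11.47 and 11.33 in KO controls. The genotypes overlapped, and over all gavages Slc25a5 was higher in KO hearts by 0.13 ± 0.03, with all 8 of its probe sets between 0.08 and 0.17. The phosphate carrier Slc25a3 read 13.06, 13.00 and 12.92 in WT and 13.02, 13.08, 13.04, 13.06 and 13.03 in KO controls. Its averaged difference of 0.05 ± 0.02 was called (adjusted p = 0.0098), yet its second bright probe set gave -0.07, and the mean of both probe sets gave -0.00968 (adjusted p = 0.854); the call was also lost when the signals were quantile normalized again (adjusted p = 0.0649). No treatment comparison called Slc25a3, Slc25a4 or Slc25a5. Leaving out single arrays ended none of the 15 averaged genotype calls.

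Genes around the carriers were counted in the same averaged genotype comparison, in which 22.8% of all genes were higher and 16.1% lower. Of 12 tested genes of carrier import, Tomm40 was higher (0.21 ± 0.03) and Tomm22 lower (-0.07 ± 0.03). Among 19 tested genes of other mitochondrial transport, 5 were higher, Vdac2 by 0.11 ± 0.02 among them, and 4 lower. The carnitine carrier Slc25a20 (-1.82 ± 0.03) and the uncoupling protein Ucp3 (-2.79 ± 0.12) had the largest differences in that list. Of 11 tested shuttle enzymes, 3 were higher, including Got1 (0.08 ± 0.02) and Got2 (0.07 ± 0.02), and 3 lower, including malic enzyme Me1 (-0.95 ± 0.04). Of 10 tested iron and heme genes, Alas1 was higher (0.25 ± 0.10), and Cpox (-0.48 ± 0.06) and Nfs1 (-0.06 ± 0.02) were lower. The medians of these lists lay between -0.02 and 0.01, beside 0.02 for all tested genes.

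Markers of other cells are given for the same comparison, beside 22.8% of all genes higher and 16.1% lower. Macrophage markers were higher for 3 of 4 tested (Cd14 0.51, Cd68 0.32, Csf1r 0.16), fibroblast markers lower for 3 of 6 (Pdgfra -0.21, Lum -0.19, Dcn -0.07) and endothelial markers higher for Kdr (0.66) and lower for Tek (-0.16) and Pecam1 (-0.10) of 6. Acta1, a single gene of a skeletal muscle list that also holds Myh4, Tnnt3, Ckm and Mylpf, was lower (-1.87). Ventricular markers were higher for 2 of 7 (Ryr2 0.11, Pln 0.07). Smooth muscle markers were higher for 1 of 4, with all 4 above 0, and 0 of 4 atrial markers were called. Summed macrophage signal ran from 257 to 317 in WT controls and from 272 to 338 in KO controls. Their part in the carrier differences was not tested.

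The 5 treatments of a genotype share its control arrays, so their values are given side by side. In WT hearts Slc25a27 was called higher after each polyunsaturated oil, and the aspartate-glutamate carrier Slc25a13 lower after triolein and tridocosahexaenoin. Not all of these calls held when arrays or settings changed, as given below. Slc25a13 was also lower after Wy14643 (-0.33), without a call in the reported model. Called members numbered 1 of 28 after triolein (beside 0.0728% of all genes), 1 after trilinolein (1.25%), 2 after trilinolenin (3.41%), 2 after tridocosahexaenoin (1.86%) and 0 after Wy14643 (0.0607%). On the mean of the 4 oils 2 of 28 were called, beside 1.2% of all genes. These counts are small, and the 3 WT control arrays enter every one of them.

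**Figure D3:**
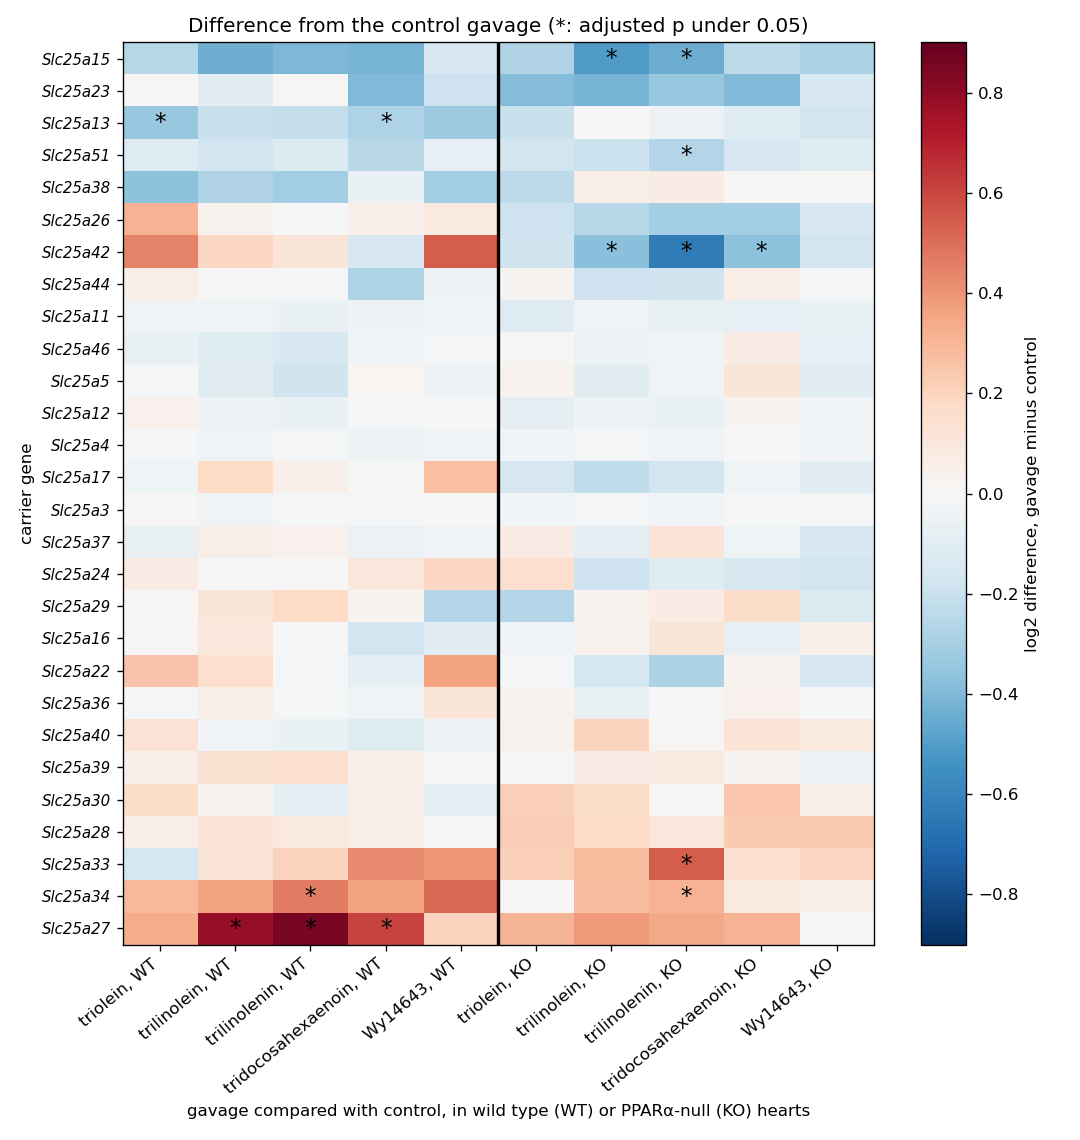
Log2 difference from the control gavage (colour) for the 28 tested carrier genes (y axis) after each of 5 gavages in wild-type and PPARα-null hearts (x axis), with stars for adjusted p under 0.05. Slc25a27 carries stars in 3 wild-type columns and Slc25a42 in 3 PPARα-null columns.

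Slc25a27 read 4.26, 4.38 and 4.04 in WT controls. After trilinolein it read 4.77, 5.27, 5.18, 4.80 and 5.03, after trilinolenin 4.83, 5.39, 5.06 and 5.03, and after tridocosahexaenoin 4.88, 4.92, 4.89, 4.64 and 4.86. All of these lay above every control array. The rises were 0.78 ± 0.16 (adjusted p = 0.00743), 0.85 ± 0.17 (adjusted p = 0.00292) and 0.61 ± 0.16 (adjusted p = 0.036). Triolein gave 4.92, 4.49, 4.42 and 4.41, also all above the controls, with a difference of 0.33 that was not called. Averaged over genotypes, trilinolein, trilinolenin and tridocosahexaenoin against triolein were not called for Slc25a27 (limma adjusted p over the 6 pairs of oils = 0.176, 0.162 and 0.572). Without the 3 arrays of weight under 0.5, trilinolenin against triolein was called (0.33, adjusted p = 0.0396). In KO hearts the mean of the 4 oils was higher by 0.34 ± 0.11 (adjusted p = 0.0381), from 4.32, 4.08, 3.76, 3.80 and 4.07 in controls. The trilinolein call in WT was lost without WT control array 3 (adjusted p up to 0.0824), and the tridocosahexaenoin call without any 1 of the 3 WT control arrays or of tridocosahexaenoin arrays 1, 3 and 5 (up to 0.137). The KO call on the 4 oils was lost without KO control 2, 3 or 4, triolein 5 or tridocosahexaenoin 2 or 5 (up to 0.182), and the WT call on the 4 oils (0.64 ± 0.14, adjusted p = 0.00991) without WT control 2 or 3 (up to 0.111). Testing dim genes as well ended the tridocosahexaenoin call and the KO call on the 4 oils of Slc25a27 (adjusted p = 0.0627 and 0.0686), and a fit of only the groups compared ended the former (0.0752). Slc25a27 has 4 probe sets, and with their mean it was too dim to be tested.

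**Figure D4:**
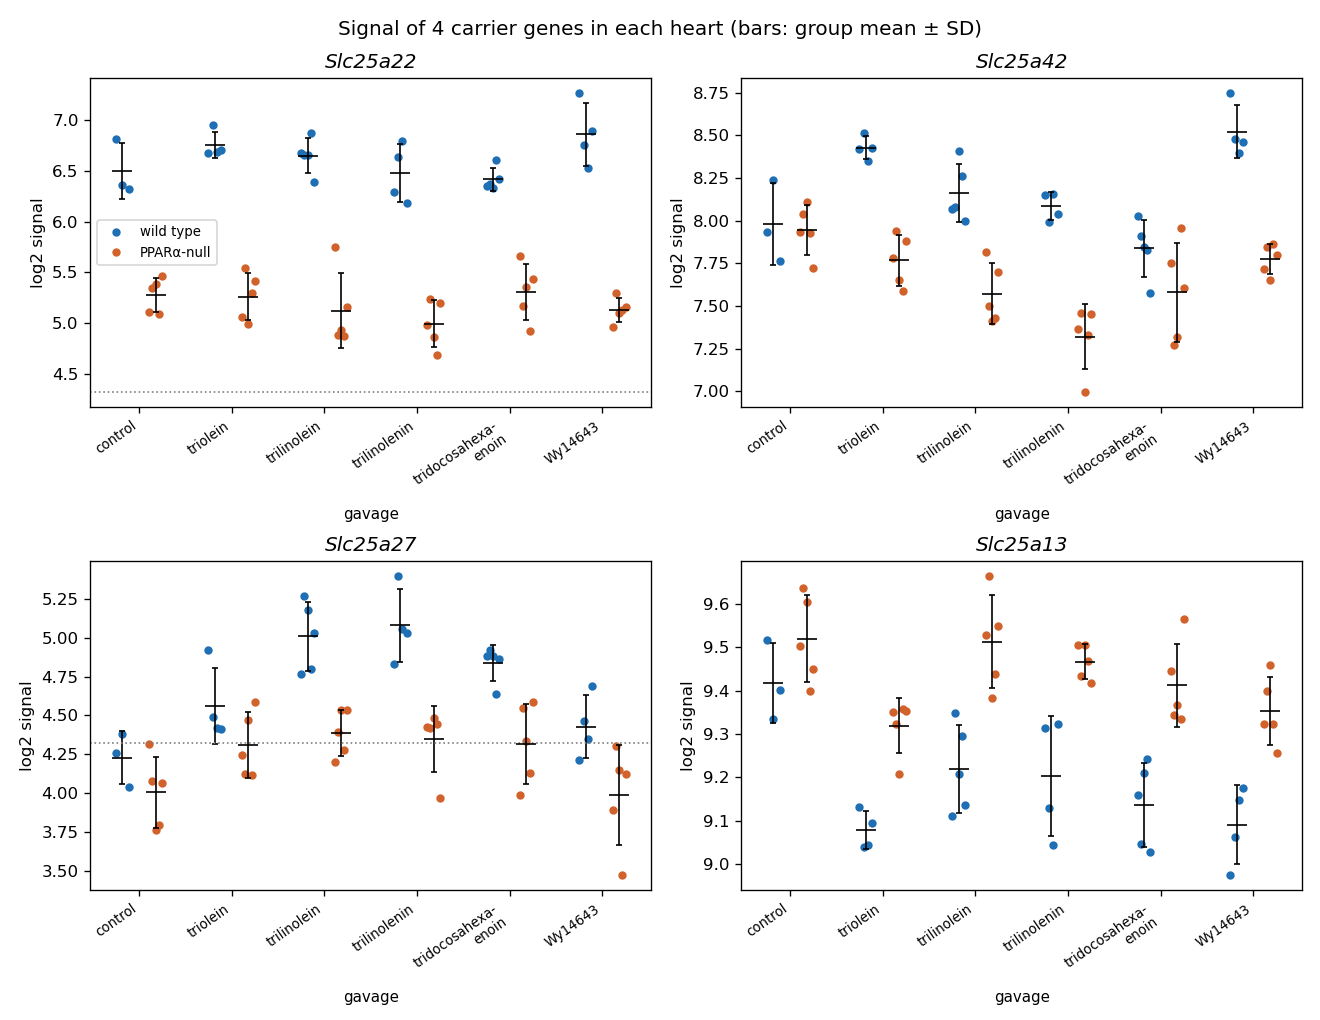
Log2 signal (y axis) in each array by gavage (x axis) and genotype for Slc25a22, Slc25a42, Slc25a27 and Slc25a13; bars are the mean ± SD of a group and the dotted line is the brightness minimum of 4.32. The 30 PPARα-null arrays lie below the 25 wild-type arrays for Slc25a22, and Slc25a27 control arrays lie near or under the minimum.

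Slc25a13 read 9.52, 9.33 and 9.40 in WT controls. It read 9.13, 9.04, 9.05 and 9.10 after triolein and 9.16, 9.05, 9.21, 9.24 and 9.03 after tridocosahexaenoin, all below every control. The gene fell by 0.34 ± 0.07 after triolein (adjusted p = 0.0413) and by 0.28 ± 0.07 after tridocosahexaenoin (adjusted p = 0.0286). On the mean of the 4 oils it fell by 0.26 ± 0.06 (adjusted p = 0.0206). After Wy14643 it read 8.98, 9.06, 9.15 and 9.18, again below all controls, with a difference of -0.33 ± 0.07. That difference missed the threshold in the reported model (adjusted p = 0.052) but was called in 5 other settings, given below. KO hearts gave -0.20 after triolein, -0.01 after trilinolein, -0.05 after trilinolenin, -0.11 after tridocosahexaenoin and -0.17 after Wy14643, none called. The triolein call in WT was lost without WT control 1 or 3 or triolein 2, 3 or 4 (differences of -0.38 to -0.29, adjusted p up to 0.258). Without any 1 WT control array the tridocosahexaenoin call (also without tridocosahexaenoin 5, up to 0.185) and the call on the 4 oils (up to 0.182) were lost. All 3 Slc25a13 calls were also lost when dim genes were tested too (adjusted p = 0.078, 0.0627 and 0.0507) and in a fit of only the groups compared (0.405, 0.178 and 0.0621), and the triolein call with array weights (0.0623).

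Slc25a34 is a carrier of unsettled cargo. It read 8.93, 8.98 and 8.94 in WT controls and 9.36, 9.56, 9.32 and 9.43 after trilinolenin, without overlap, and rose by 0.47 ± 0.13 (adjusted p = 0.0314). After Wy14643 it read 9.10, 9.67, 9.61 and 9.47, a difference of 0.51 ± 0.13 that was not called (adjusted p = 0.101). All WT arrays of the 5 treatments lay above the 3 controls, which lie close together. KO controls were wider, at 9.57, 9.44, 9.12, 9.00 and 9.17, and after trilinolenin the KO hearts read 9.64, 9.91, 9.36, 9.30 and 9.65, overlapping them. The KO rise of 0.31 ± 0.11 was called at the edge of the threshold (adjusted p = 0.0491). The WT call was lost without any 1 of its controls or trilinolenin 2 or 4 (adjusted p up to 0.0998), and the KO call without KO control 3, 4 or 5 or trilinolenin 1, 2 or 5 (up to 0.208). Both Slc25a34 calls were lost when dim genes were tested too (adjusted p = 0.0605 and 0.0902), and the KO call also with limma's array weights (0.0589), without the 3 arrays of weight under 0.5 (0.111) and in a fit of only the groups compared (0.205).

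Wy14643 called no member in either genotype by limma. In WT 6 of 28 members had an unadjusted p under 0.05, beside 614 of all 8237 genes. In KO 3 members did, beside 814 of all genes. Over all 8237 genes the calls were 5 in WT (0.0607%) and 6 in KO (0.0728%). The largest WT difference was that of Slc25a42, 0.54 ± 0.13 (95% interval 0.28 to 0.80, adjusted p = 0.0702), with all 4 arrays above the 3 controls. Other WT differences at an unadjusted p under 0.05 were Slc25a34 and Slc25a13, given above, Slc25a33 (0.40 ± 0.17), Slc25a22 (0.36 ± 0.17) and Slc25a38 (-0.32 ± 0.15). In KO hearts they were Slc25a28 (0.23 ± 0.08), Slc25a13 (-0.17 ± 0.06) and Slc25a15 (-0.28 ± 0.11). In WT hearts 5 other settings called 1 to 3 members, counted in the closing section. All 5 called Slc25a13. They were the brightness filter at 100 (limma adjusted p = 0.0319), the mean of all probe sets (0.0278) and quantile normalization again (0.0407). The others were array weights (0.0149) and leaving out the 3 arrays of weight under 0.5 (0.0419). All but the last called Slc25a42 as well, and array weights also called Slc25a34 (0.012).

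In KO hearts the coenzyme A carrier Slc25a42 fell after trilinolein, trilinolenin and tridocosahexaenoin, and the ornithine carrier Slc25a15 after trilinolein and trilinolenin. Trilinolenin called the most members. Called members numbered 0 of 28 after triolein (1.15% of all genes), 2 after trilinolein (4.32%), 5 after trilinolenin (11.9%) and 1 after tridocosahexaenoin (3.54%). After triolein 6 members had an unadjusted p under 0.05, beside 1209 of all 8237 genes. On the mean of the 4 oils 4 of 28 were called (14.3%), beside 9.8% of all genes.

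Slc25a42 read 7.94, 8.04, 8.11, 7.93 and 7.72 in KO controls. It read 7.82, 7.50, 7.41, 7.43 and 7.70 after trilinolein, 7.37, 7.46, 6.99, 7.33 and 7.45 after trilinolenin and 7.75, 7.27, 7.32, 7.96 and 7.61 after tridocosahexaenoin. All 5 trilinolenin arrays lay below every control, as did 4 of 5 trilinolein and 3 of 5 tridocosahexaenoin arrays. The gene fell by 0.38 ± 0.11 (adjusted p = 0.0337), by 0.63 ± 0.11 (adjusted p = 0.000117) and by 0.37 ± 0.11 (adjusted p = 0.042). On the mean of the 4 oils it fell by 0.39 ± 0.08 (adjusted p = 0.00209). The trilinolenin call and that on the 4 oils held without any single array. The trilinolein call was lost without KO control 1, 2, 3 or 4 or trilinolein 2, 3 or 4 (adjusted p up to 0.126), and the tridocosahexaenoin call without KO control 1, 2, 3 or 4 or tridocosahexaenoin 2, 3 or 5 (up to 0.147). Both were also lost when dim genes were tested too (adjusted p = 0.0652 and 0.0749) and in a fit of only the groups compared (0.0653 and 0.274), the trilinolein call with the mean of probe sets (0.0624) and the tridocosahexaenoin call without the 3 arrays of low weight (0.0731).

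Slc25a15 carries ornithine and citrulline for the urea cycle. It read 6.42, 6.43, 6.39, 6.65 and 6.64 in KO controls, 5.86, 6.24, 5.99, 5.89 and 5.97 after trilinolein and 6.20, 5.65, 6.36, 6.16 and 5.92 after trilinolenin. No array of these groups reached the lowest control, and neither did any KO array after triolein, tridocosahexaenoin or Wy14643, whose differences of -0.27, -0.24 and -0.28 were not called. The gene fell by 0.51 ± 0.11 after trilinolein (adjusted p = 0.00648) and by 0.44 ± 0.11 after trilinolenin (adjusted p = 0.00706), and on the mean of the 4 oils by 0.37 ± 0.09 (adjusted p = 0.00643). In WT hearts the differences were of like size, -0.44 after trilinolein and -0.41 after trilinolenin, without a call. WT hearts also gave -0.26 after triolein and -0.42 after tridocosahexaenoin, the latter with all 5 arrays below every control, again without a call. With array weights the WT falls were called after trilinolein (limma adjusted p = 0.0219), after tridocosahexaenoin (0.0368) and on the mean of the 4 oils (0.0216). The KO trilinolenin call was lost without KO trilinolenin array 2 (adjusted p = 0.0517), the lowest of its group, with the mean of probe sets (0.0512) and in a fit of only the groups compared (0.053).

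**Figure D5:**
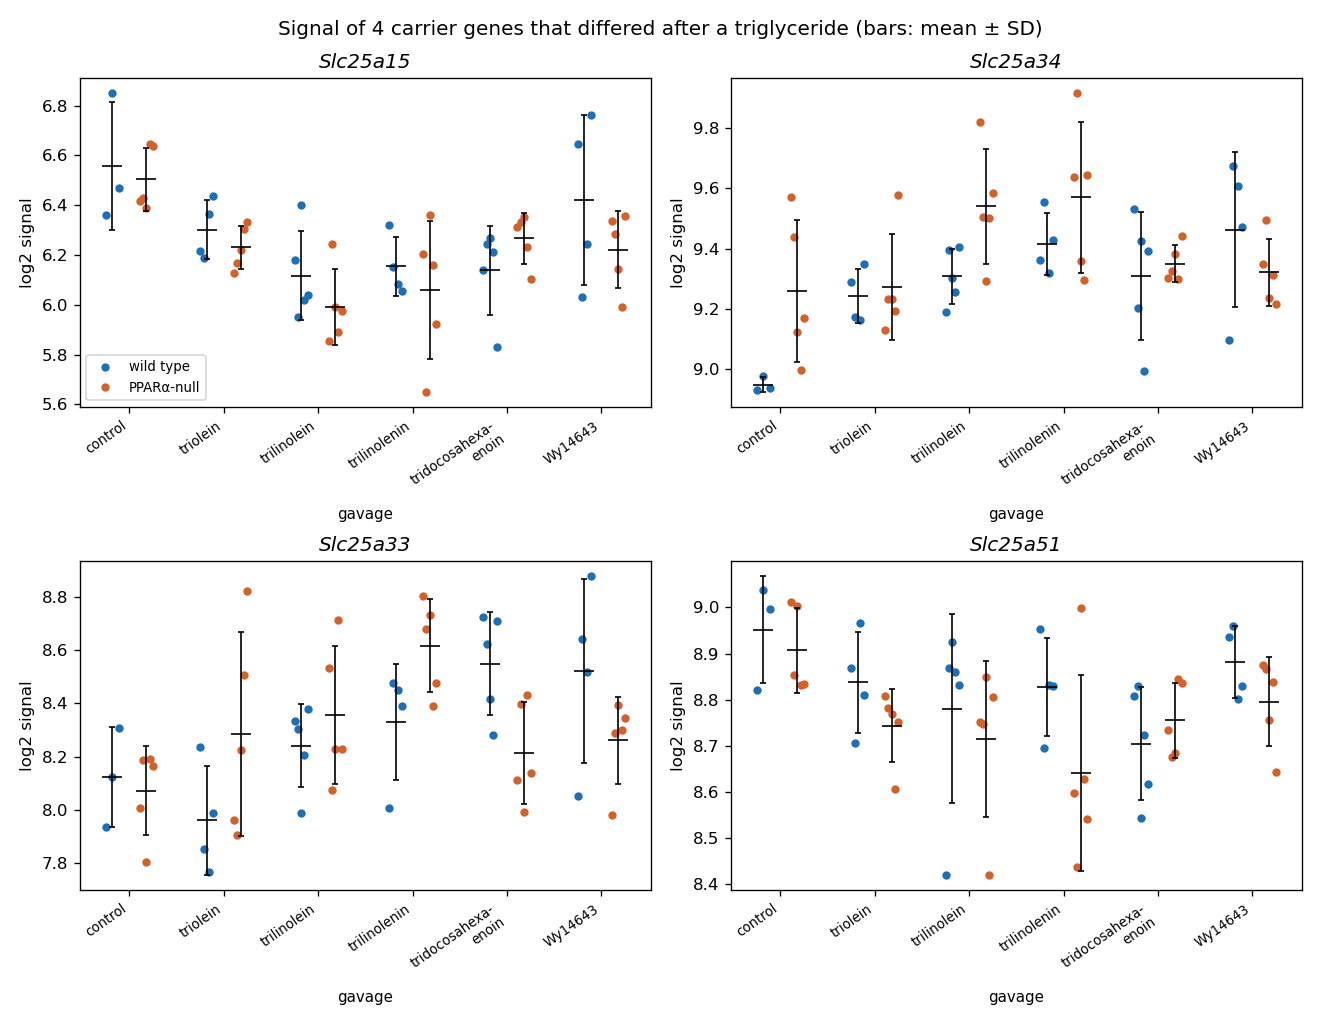
Log2 signal (y axis) in each array by gavage (x axis) and genotype for Slc25a15, Slc25a34, Slc25a33 and Slc25a51; bars are the mean ± SD of a group. Slc25a15 lies lower after trilinolein than after control in PPARα-null hearts, and the 3 wild-type control arrays of Slc25a34 lie between 8.93 and 8.98.

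Slc25a33, a pyrimidine nucleotide carrier, read 8.01, 8.19, 7.80, 8.19 and 8.17 in KO controls and 8.80, 8.68, 8.73, 8.39 and 8.48 after trilinolenin. The groups did not overlap, and Slc25a33 rose by 0.54 ± 0.14 (adjusted p = 0.00804). The mitochondrial NAD carrier Slc25a51 read 9.01, 8.85, 9.00, 8.83 and 8.83 in KO controls and 8.60, 8.44, 9.00, 8.63 and 8.54 after trilinolenin. Slc25a51 fell by 0.27 ± 0.08 (adjusted p = 0.0307), with 4 of 5 arrays below every control and array 3 within the range of the controls. Slc25a26 fell on the mean of the 4 oils by 0.26 ± 0.09 (adjusted p = 0.0415), from a KO control mean of 6.71 ± 0.27 (SD, n = 5). The Slc25a51 call was lost without KO control 1 or 3 or trilinolenin 1, 2 or 5 (adjusted p up to 0.121). That of Slc25a26 was lost without KO control 2, 3 or 4, triolein 3, trilinolein 1, 4 or 5, trilinolenin 2 or tridocosahexaenoin 2 or 5 (up to 0.276). Testing dim genes too, the mean of probe sets and a fit of only the groups compared each ended the calls of Slc25a51 (adjusted p = 0.0617, 0.107 and 0.133) and Slc25a26 (0.0777, 0.166 and 0.129), and leaving out the 3 arrays of low weight ended that of Slc25a51 (0.0891).

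Whether a treatment acted differently in the genotypes was tested by interaction terms, KO change minus WT change. By limma 0 of 28 members, and 0 of all 8237 genes (0%), were called for Wy14643 or for the mean of the 4 oils. At an unadjusted p under 0.05 there were 3 members each, beside 362 of all genes for Wy14643 and 330 for the oils. Slc25a42 had the largest terms among members, -0.71 ± 0.17 for Wy14643 (95% interval -1.05 to -0.38, adjusted p = 0.402) and -0.54 ± 0.14 for the oils (95% interval -0.81 to -0.26, adjusted p = 0.997). With the mean of all probe sets the Wy14643 term of Slc25a42 was called (-0.51, adjusted p = 0.0436). For Wy14643 the others were Slc25a22 (-0.51 ± 0.23) and Slc25a34 (-0.45 ± 0.17). For the oils they were Slc25a26 (-0.36 ± 0.14) and Slc25a13 (0.17 ± 0.08). In the reported model a treatment call in 1 genotype and none in the other is not shown to be a difference between them.

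The 4 triglycerides were given at the same volume and time and differ in chain length and number of double bonds. They were compared in 6 pairs, averaged over genotypes. Trilinolein against triolein called 1 of 28 members (1.92% of all genes), trilinolenin against triolein 2 (6.05%) and tridocosahexaenoin against triolein 1 (0.789%). The 3 pairs among polyunsaturated oils called 0: trilinolenin against trilinolein (0% of all genes), tridocosahexaenoin against trilinolein (3.48%) and tridocosahexaenoin against trilinolenin (3.01%). At an unadjusted p under 0.05 these pairs held 1, 6 and 5 of 28 members, beside 445, 1376 and 1267 of all 8237 genes.

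Slc25a42 was lower after trilinolenin than after triolein (-0.40 ± 0.08, adjusted p = 0.00192, and 0.00369 adjusted over the 6 pairs as well). It was lower after tridocosahexaenoin than after triolein (-0.39 ± 0.08, adjusted p = 0.0146, and 0.00323 over the pairs). Its group means were 8.43 ± 0.07 (SD, n = 4) in WT and 7.77 ± 0.15 (SD, n = 5) in KO hearts after triolein, 8.09 ± 0.08 (SD, n = 4) and 7.32 ± 0.19 (SD, n = 5) after trilinolenin, and 7.84 ± 0.17 (SD, n = 5) and 7.58 ± 0.29 (SD, n = 5) after tridocosahexaenoin. Triolein hearts thus had the highest mean of these oils in both genotypes. Trilinolein differed from triolein by -0.23 (95% interval -0.39 to -0.07) without a call, and tridocosahexaenoin from trilinolenin by 0.01 (95% interval -0.15 to 0.16). Both called Slc25a42 differences held without any single array, but the tridocosahexaenoin call was lost in a fit of only the groups compared (adjusted p = 0.125) and the trilinolenin call with the mean of probe sets (0.0513).

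Slc25a13 was higher after trilinolein than after triolein by 0.17 ± 0.04 (adjusted p = 0.0301, and 0.0284 over the 6 pairs), while trilinolenin against triolein gave 0.14 (95% interval 0.05 to 0.23) without a call. The latter was called with the filter at 100 (adjusted p = 0.0440), the mean of all probe sets (0.0480) and quantile normalization again (0.0487). Array weights (0.0487) and leaving out the 3 arrays of low weight (0.0497) called it too. Slc25a33 was higher after trilinolenin than after triolein by 0.35 ± 0.11 (adjusted p = 0.0398), but not when p was adjusted over the 6 pairs as well (0.0718). Its arrays overlapped, with WT hearts at 8.24, 7.85, 7.77 and 7.99 after triolein and 8.01, 8.47, 8.45 and 8.39 after trilinolenin. The Slc25a33 call was lost without WT trilinolenin 2, 3 or 4, WT triolein 2, 3 or 4, KO trilinolenin 1, 2 or 3 or KO triolein 1, 2 or 3 (adjusted p up to 0.0977). That of Slc25a13 was lost without WT trilinolein 2 or 4, WT triolein 2 or 3, KO trilinolein 2 or KO triolein 3 (up to 0.0782). Both were lost when dim genes were tested too (adjusted p = 0.0726 for Slc25a33 and 0.0744 for Slc25a13) and in a fit of only the groups compared (0.102 and 0.062).

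After trilinolenin in KO hearts, genes of these lists were called lower and none higher. Over all 8237 genes 601 were called lower and 383 higher, 11.9% in either direction. Of 12 tested import genes 3 fell, the small intermembrane chaperones Timm8a1 (-0.48 ± 0.12) and Timm9 (-0.46 ± 0.10) and the outer-membrane receptor Tomm22 (-0.23 ± 0.06). Of 19 other transport genes Ppif (-0.35 ± 0.08), Mtch1 (-0.23 ± 0.06) and Letm1 (-0.21 ± 0.06) fell. Of 10 iron and heme genes Alas1, the first enzyme of heme synthesis, fell by 0.95 ± 0.22, Glrx5 by 0.18 ± 0.06 and Isca1 by 0.13 ± 0.04, and of 11 shuttle enzymes none was called. The lists' medians were -0.12, -0.04, -0.11 and -0.06, beside -0.02 for all genes.

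In the same hearts the fibroblast collagens Col1a1 (-0.72) and Col3a1 (-0.87) fell, 2 of 6 fibroblast markers, as did Kdr (-0.61), 1 of 6 endothelial markers, and none of 7 ventricular markers was called. Atrial markers were not called, but their summed signal ran from 5122 to 17683 in KO controls and from 8265 to 16605 after trilinolenin. In WT hearts it ran from 6381 to 9310 in controls and from 14358 to 16116 after triolein, without overlap. The part of these markers in the carrier differences was not tested.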

How the data were processed

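The deposited values are log2 signals of 45101 probe sets made with GCRMA 2.2.0, per the submitters' processing notes; the method removes background, equalises the arrays' distributions and merges probes, which can shrink differences among dim probe sets. No other upstream step is given in the sources used here. Symbols came from the platform annotation: 34958 probe sets had 1 symbol, 932 several and 9211 none. For each gene the probe set with the highest mean was used, and genes over 20 (linear) in 3 arrays were tested. One mean per group was fitted with limma 3.58.1 in R 4.3.3 over all 55 arrays (43 residual and 3.25 prior degrees of freedom), in 22 comparisons, each adjusted by Benjamini-Hochberg. The script was tested on simulated data. The labels do not say which arrays share a litter or day, so p-values cover only the spread among the hearts sampled. No batch or scan date is given. Every member called in any comparison is named, with values per array for those called in a single treatment or by 0.5 or more between genotypes. Members, lists, roles and promoters were chosen with earlier results of these data known. Alternatives changed the filter, probe set, normalization, weights, block, samples fitted and each array in turn.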

Additional observations from a re-analysis of the deposited data

Results flagged for a closer look

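For 13 members, each group of 4 or 5 arrays was searched for 1 array far from the rest by Dixon's ratio. Of 143 such sets 12 held one, and chance alone gives about 1 in 20. In WT hearts they were Slc25a22 after triolein (array 2, 6.95, the others 6.68 to 6.71), Slc25a27 after triolein (array 1, 4.92, the others 4.41 to 4.49) and after tridocosahexaenoin (array 4, 4.64, the others 4.86 to 4.92), Slc25a29 after Wy14643 (array 4, 4.25, the others 4.52 to 4.56) and Slc25a51 after trilinolein (array 1, 8.42, the others 8.83 to 8.92). In KO hearts after triolein they were Slc25a13 (array 3, 9.21, the others 9.32 to 9.36), Slc25a34 (array 5, 9.58, the others 9.13 to 9.23) and Slc25a51 (array 4, 8.61, the others 8.75 to 8.81). In KO hearts after other gavages they were Slc25a42 after trilinolenin (array 3, 6.99, the others 7.33 to 7.46), Slc25a27 after trilinolenin (array 5, 3.97, the others 4.42 to 4.48), Slc25a33 after Wy14643 (array 1, 7.98, the others 8.29 to 8.39) and Slc25a51 after trilinolein (array 4, 8.42, the others 8.75 to 8.85). No array was dropped on this ground.

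Slc25a42 moved to opposite sides of the control mean in the genotypes after 3 single oils, with every WT array above and every KO array below it. The change in KO minus that in WT was -0.63 after triolein (0.45 in WT, -0.18 in KO), -0.56 after trilinolein (0.18 and -0.38) and -0.73 after trilinolenin (0.11 and -0.63). The difference was not tested for single oils; the test on the mean of the 4 oils is given above and was not called.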

How the results depend on the processing

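Of the 40 called differences of members, the filter at 100 tested 31 and the mean of all probe sets 33, and the other settings all 40. Neither the filter at 100 nor the mean of all probe sets tested Slc25a27. Wherever it was tested a difference kept its direction, except Slc25a3, KO minus WT averaged, which reversed to -0.00968 with the mean of all probe sets, and 24 kept their call without any single array. Array weights gave these counts of called members: 2 for KO minus WT in controls (1 as reported), 7 for the 4 oils in KO (4), 4 for the 4 oils in WT (2), 4 for tridocosahexaenoin in WT (2), 2 for trilinolein in WT (1), 1 for triolein in KO (0), 0 for triolein in WT (1) and 3 for Wy14643 in WT (0). Without a filter on dim genes the counts were 2 for the 4 oils in KO, 1 for the 4 oils in WT, 0 for tridocosahexaenoin in both genotypes, 1 for trilinolein and 3 for trilinolenin in KO, 1 for trilinolenin and 0 for triolein in WT, 0 for trilinolein and 1 for trilinolenin against triolein. With the mean of probe sets they were 2 for Wy14643 in WT, 1 for the Wy14643 interaction, 1 for the 4 oils, 1 for tridocosahexaenoin and 0 for trilinolein in WT, 1 for trilinolein and 3 for trilinolenin in KO, and 2 and 1 for tridocosahexaenoin against trilinolein and trilinolenin (0 each as reported). A filter at 100 (5204 genes) gave 2 for Wy14643, 1 for tridocosahexaenoin, 0 for trilinolein and 1 for trilinolenin in WT, where Slc25a27 is no longer tested. That filter also called Slc25a26 after trilinolenin in KO, and Slc25a28 and Slc25a51 on the 4 oils in KO. It called Slc25a34 on the 4 oils in WT and Slc25a13 for trilinolenin against triolein as well. A fit of only the groups compared gave 0 for tridocosahexaenoin in both genotypes, 0 for triolein in WT, 1 for trilinolein and 2 for trilinolenin in KO, and 0, 1 and 0 for trilinolein, trilinolenin and tridocosahexaenoin against triolein. Quantile normalization again gave 2 for Wy14643 in WT. It also called Slc25a28 and Slc25a51 on the 4 oils in KO, Slc25a13 for trilinolenin against triolein and Slc25a30 in the averaged genotype comparison. Without the 3 arrays of weight under 0.5, a setting chosen after the weights were seen, the counts were 1 for Wy14643 in WT, 0 for tridocosahexaenoin in KO and 4 for trilinolenin against triolein. Leaving them out also called Slc25a27 after trilinolenin in KO, and Slc25a23 and Slc25a28 on the 4 oils in KO. Not every changed count is listed here, and the causes of these changes were not tested. With single arrays left out the counts ran from 1 to 2 for KO minus WT in controls and from 15 to 17 averaged. In WT they ran from 0 to 1 for triolein and trilinolein, 1 to 2 for trilinolenin, 0 to 3 for tridocosahexaenoin, 0 to 2 for Wy14643 and 0 to 3 for the 4 oils. In KO they were 0 for triolein and Wy14643, and ran from 1 to 2 for trilinolein, 2 to 6 for trilinolenin, 0 to 2 for tridocosahexaenoin and 2 to 6 for the 4 oils. Interactions stayed at 0. Pairs of oils ran from 0 to 1 for trilinolein, 1 to 3 for trilinolenin and 1 to 1 for tridocosahexaenoin against triolein, 0 for trilinolenin against trilinolein, and 0 to 1 for tridocosahexaenoin against trilinolein or trilinolenin. Replicate numbers recur in the groups but do not pair the arrays: deviations of 281 same-numbered pairs had a median correlation of 0.00036 (-0.29 to 0.37, 62 above 0.1), and 10 of 55 arrays correlated best with their own number. The replicate block kept 39 of the 40 calls and gave 0 for triolein in WT, where Slc25a13 had an adjusted p of 0.051. Signals near the brightness minimum, as for Slc25a27, limit what can be said of their size.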

Other observations

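Slc25a23, a calcium-regulated ATP-magnesium and phosphate carrier, was not called in the reported model but had negative differences after all 4 oils in KO hearts. They were -0.39 after triolein, -0.42 after trilinolein, -0.34 after trilinolenin and -0.40 after tridocosahexaenoin, and all 5 arrays of each group lay below the control mean of 6.01 ± 0.23 (SD, n = 5). These groups share their controls. On the mean of the 4 oils the value was -0.39 ± 0.13 (limma adjusted p = 0.0506). In WT hearts only tridocosahexaenoin came near it, at -0.39, with 5 of 5 arrays below every control and no call, and the other oils gave -0.09 to 0.01.

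Slc25a28 (mitoferrin 2) was likewise not called after any gavage in the reported model. In KO hearts it gave 0.22 after triolein, 0.17 after trilinolein, 0.10 after trilinolenin, 0.24 after tridocosahexaenoin and 0.23 after Wy14643. Every array after triolein and Wy14643 lay above every KO control. On the mean of the 4 oils the value was 0.18 ± 0.06 in KO hearts (limma adjusted p = 0.058) and 0.08 ± 0.08 in WT hearts. Both genes were chosen here after their values were seen.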
